A study of Mus musculus with 6 samples.

Results

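The 4 mature miRNAs mmu-miR-302a-3p, mmu-miR-302b-3p, mmu-miR-302c-3p and mmu-miR-302d-3p are the 3p strands of the miR-302 hairpins, and they were followed here through the mRNA fragments to which they were ligated on AGO2. Every hybrid read whose miRNA was given 1 of these 4 names was taken, which gave 4471 reads from 4 of the 298 miRNAs with any hybrid. These reads joined the 4 strands to 1113 of the 3200 target genes in the data. The reads came from P19 cells, a mouse embryonic carcinoma line, analysed by AGO2 CLASH, a method in which RNA is crosslinked by UV light, Argonaute is immunoprecipitated and a miRNA and the target piece held by the same Argonaute protein are ligated and sequenced as 1 molecule. The WT group was P19 with the genotype Dicer (+/+), and the HM group was P19 with the genotype Dicer (HM/-), in which 1 Dicer1 allele carries a frameshift loss-of-function change and the other a hotspot mutation of the RNase IIIb domain, both made with CRISPR. Each group had 3 libraries named as biological replicates. The HM cells descend from a single edited clone, so a feature of that clone and the effect of the mutation cannot be told apart. The paper reports that a cluster of miRNAs was silent in the HM line as a clonal effect, and left it out of several figures. No miRNAs were taken out here for that reason, so any hybrids of that cluster count in the totals. What part the cluster has in the shares, fold changes and calls relative to 3p hybrids was not tested.

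Dicer cuts the loop end of a precursor hairpin with a pair of RNase III domains. RNase IIIa makes the cut that sets the 5′ end of the 3p strand, RNase IIIb makes the cut that sets the 3′ end of the 5p strand, and hotspot mutations of RNase IIIb are known for the loss of 5p strands. The miR-302 cluster is a hallmark of pluripotent cells, where it is known to release the G1/S transition and to restrain regulators of differentiation and TGF-beta signalling. A miRNA finds its targets mostly through its seed, bases 2 to 8 from the 5′ end, and mRNAs that carry the complement of the seed in the 3′ UTR are repressed.

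In the RefSeq annotation of GRCm38.p6 the hairpins lie in a row on the plus strand of chromosome 3, inside the Larp7 gene. Mir302b comes first at chr3:127545228-127545301, then Mir302c at chr3:127545363-127545430, Mir302a at chr3:127545496-127545564, Mir302d at chr3:127545624-127545689 and Mir367 at chr3:127545733-127545807, so that all 5 fit in 580 bases. RefSeq gave a mature sequence for 3 of the 4 strands. They are shown because their first bases decide which sites each strand can reach, with the seed in capitals:

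miR-302b-3p: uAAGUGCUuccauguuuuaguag

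miR-302d-3p: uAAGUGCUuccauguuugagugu

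miR-302c-3p: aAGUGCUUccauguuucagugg

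miR-291a-3p: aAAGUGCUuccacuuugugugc

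miR-294-3p: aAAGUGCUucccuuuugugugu

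miR-295-3p: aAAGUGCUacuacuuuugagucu

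The seed AAGUGCU was the same in miR-302b-3p and miR-302d-3p and in 3 strands of the miR-290 cluster, miR-291a-3p, miR-294-3p and miR-295-3p, another cluster known from mouse pluripotent cells. miR-302c-3p begins 1 base later within the shared stretch, so that its own seed reads AGUGCUU. The 4 strands share their sequence up to base 18 of the longer form, where they begin to differ. Of the 4471 reads, 96.1% had a miRNA part that reached the bases that tell the strands apart, and in 100% of these the bases were those of the consensus for the name in the table. That consensus was the most frequent form among the reads of the same name, so the agreement is no independent check of the names. miR-302a-3p was given the seed AAGUGCU here from its shared core in the reads.

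The WT libraries held 1929, 2331 and 1621 hybrid reads and the HM libraries 1661, 5341 and 2797. 3p-miRNAs gave 916, 1091 and 701 of the WT reads (43.2% to 47.5% of a library) and 1585, 5113 and 2670 of the HM reads (95.4% to 95.7%). Where a gene was not read, up to 3 reads are compatible with that zero, or 0.164% to 1.01% of a library's miR-302 3p reads. All 8 miRNAs of a list known for pluripotent cells had hybrids, with 27.5% to 31.3% of the reads of a WT library and 52.9% to 54.9% of an HM library. This list includes miR-302a-3p, miR-302b-3p and miR-302d-3p themselves, with 961, 2467 and 933 of its 7033 reads, and miR-367-3p with 2277. It is therefore no mark of the cells independent of the family. Markers of liver, muscle, blood and smooth muscle had 0 reads, and those of neurons had 5. No difference in miRNAs beyond sampling noise was detected between HM libraries 1 and 2 (chi-square p = 0.747), 1 and 3 (p = 0.122) or 2 and 3 (p = 0.26). The same held for WT libraries 1 and 2 (chi-square p = 0.57). WT library 3 differed from WT library 1 (chi-square p = 0.00307) and from WT library 2 (p = 1.61e-05). HM libraries 1 and 2 shared 5.02% of the sequences of library 1 and were kept as separate replicates. For the other pairs of libraries within a genotype this share was lower, at 1.05% to 4.05%. Intervals and floors cover counting error only, since reads without molecular identifiers may not be independent molecules.

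The first comparison asked how much of the AGO2-bound 3p pool the family made up in each genotype. The miR-302 3p strands took 37.9%, 37.9% and 42.4% of the 3p hybrids in the 3 WT libraries and 37.9%, 35.7% and 36.9% in their HM counterparts. The genotypes overlapped, with means of 39.4% ± 2.57 in WT and 36.8% ± 1.09 in HM (SD, n = 3; two-sided exact permutation p = 0.2). The difference of -2.55 points was -1.07 without WT library 3, and the overlap was gone without WT library 1 (-3.31), without HM library 1 (-3.09) or without Peg10 (-2.77). In edgeR, with the 3p total of each library as its size, the 4 strands summed changed by -0.09 on the log2 scale (SE 0.07, edgeR adjusted p = 0.253). Scaled by DESeq2, the same sum came out higher in HM, at 0.25 (adjusted p = 0.0401), so the sign of this small difference depended on the scaling.

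Against all hybrids the picture was another one. The family held between 17.8% and 18.3% of all hybrid reads in a WT library and between 34.2% and 36.2% in an HM library, a gap of 17.2 percentage points with no overlap (exact permutation p = 0.1, the smallest p that 3 against 3 libraries allow). This gap moved together with the share of 3p-miRNAs as a whole, given above, and its part in that shift was not tested. The 5p strands of the same hairpins were rare throughout, with 32 reads in all. miR-302c-5p was read 9, 8 and 3 times in WT cells and 0, 3 and 1 times in HM cells, and fell by 3.93 on the log2 scale relative to 3p hybrids (SE 0.66, edgeR adjusted p = 2.29e-08). miR-302a-5p had 1 read, miR-302d-5p 7, and miR-302b-5p and miR-367-5p 0. miR-367-3p, the 3p strand of the neighbouring hairpin with an unrelated seed, took 20.7% ± 2.48 of the 3p hybrids in WT and 18.2% ± 1.16 in HM (SD, n = 3), with overlap and an edgeR adjusted p of 0.102 (log2 fold change -0.20). miR-367-3p passed as lower with sequences counted once (-0.26, edgeR adjusted p = 0.0252) and without WT library 3 (-0.28, edgeR adjusted p = 0.0374).

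Within the family the make-up differed between genotypes. miR-302b-3p gave 2467 reads and ranked 1 among all miRNAs in HM and 3 in WT. It supplied 37.5%, 46.4% and 46.8% of the family's reads in WT libraries, and 59.7%, 58.0% and 59.6% after the Dicer mutation. Every HM library was above every WT library, with means of 43.5% ± 5.27 and 59.1% ± 0.952 (SD, n = 3; exact permutation p = 0.1). The other 3 strands were lower in HM, and since shares add up to a whole they must be so in sum.

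miR-302a-3p, with 961 reads, made up 30.8%, 26.1% and 25.9% of the family in WT cells and 21.1%, 19.3% and 19.2% in HM cells. miR-302d-3p, with 933 reads, had 28.2%, 23.7% and 23.9% in WT and 17.3%, 20.7% and 18.6% in HM. miR-302c-3p was scarce, found 12, 16 and 10 times in WT cells and 11, 35 and 26 times in HM cells, making up 3.56% ± 0.265 and 2.13% ± 0.445 of the family. None of these 3 overlapped between genotypes (exact permutation p = 0.1 for each). The order was miR-302b-3p first and miR-302c-3p last in all 6 libraries, while miR-302a-3p minus miR-302d-3p ran from -1.42 to 3.83 points by library, a gap without a fixed sign.

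**Figure D1:**
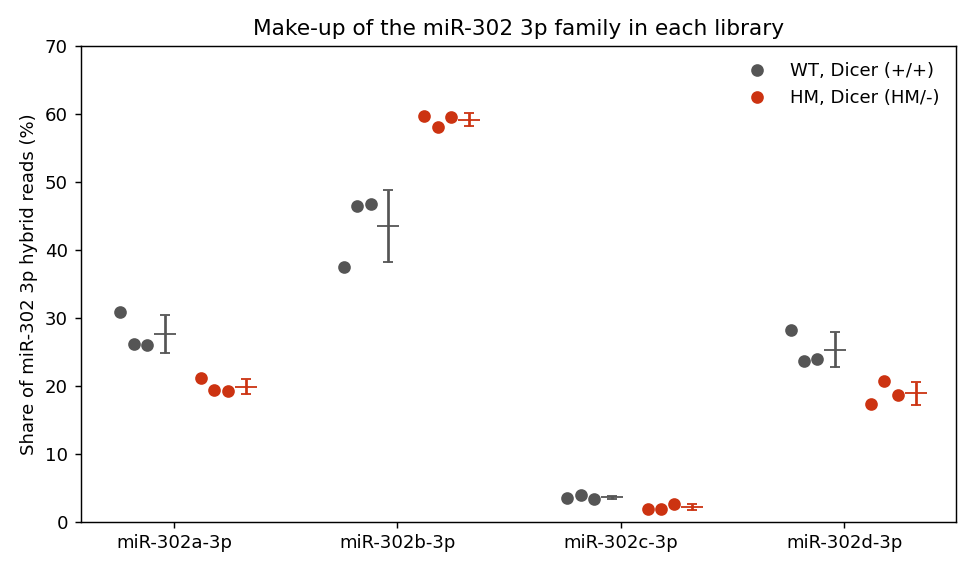
Share of the miR-302 3p hybrid reads (y axis, percent) given by each strand (x axis) in each library. Points are single libraries, grey for WT and red for HM, and the dash with bars is the mean ± SD of 3 libraries. miR-302b-3p lies at 58.0% or more in all HM libraries and at 46.8% or less in all WT libraries, and the other 3 strands lie lower in HM.

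The same reads were tested in a fit over all miRNAs, with library sizes set to the 3p totals. The 4 strands all passed, where 59.6% of the 94 miRNAs tested did. miR-302b-3p was higher in HM, at 0.34 on the log2 scale (SE 0.11, edgeR adjusted p = 0.00454), and 25.9% of the 58 3p-miRNAs tested were called higher. miR-302a-3p was lower at -0.58 (SE 0.14, edgeR adjusted p = 9e-05), miR-302d-3p at -0.49 (SE 0.14, edgeR adjusted p = 0.00134) and miR-302c-3p at -0.85 (SE 0.35, edgeR adjusted p = 0.0275), where 15.5% of the 3p-miRNAs were called lower. The calls of the 3 lower strands depended on the scaling. With TMM factors or DESeq2 size factors their values shrank to between -0.47 and -0.076 and none passed, and with all hybrids as the total all 3 turned positive. The higher value of miR-302b-3p held its direction under every scaling tried, and lost its call without WT library 1 (log2 fold change 0.22).

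The miR-290 cluster strands with the same seed were far less abundant. miR-291a-3p, miR-294-3p and miR-295-3p together were read 36, 43 and 20 times in WT cells and 40, 121 and 57 times in HM cells. They took 3.57% ± 0.625 of the 3p hybrids in WT and 2.34% ± 0.196 in HM (SD, n = 3; no overlap, exact permutation p = 0.1), and none of them was called by edgeR (adjusted p from 0.0866 to 0.132).

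The first base of a 3p strand sets its seed, so the start of each miRNA part was read against the RefSeq mature start. Over miR-302b-3p, miR-302c-3p and miR-302d-3p, 89.0% ± 2.25 of reads started there in WT and 93.6% ± 1.99 in HM (SD, n = 3; no overlap, exact permutation p = 0.1). Taken strand by strand, the genotypes were apart in miR-302b-3p, which began with the U before the shared core in 88.1%, 84.7% and 91.1% of its WT reads and 92.1%, 93.6% and 95.9% of its HM reads. Most of its other reads started 1 base later, 11.1% ± 2.75 in WT and 5.57% ± 2.24 in HM. For miR-302a-3p the U-start share was 86.0% ± 0.829 in WT and 86.6% ± 2.29 in HM, and for miR-302d-3p 89.5% ± 3.27 and 91.4% ± 1.29, with overlap in both. miR-302c-3p started at the core in 82.1% of its 95 reads with a readable start, which is its RefSeq start and 1 base inside the others.

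The target spectrum of the family was broad and shallow. Of its 1113 target genes, 457 (41.1%) had 1 read, 253 had 5 or more and 99 had 10 or more, and 34 were seen in all 6 libraries. The 4471 reads came from 4375 distinct hybrid sequences, 4301 of them with 1 read. The 20 genes with most reads held 880 reads, or 19.7%. All target fragments lie in 3′ UTRs, and all genes are predicted by TargetScan to be targets of the miRNA in the hybrid, because the deposited hybrids were restricted to these.

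**Figure D2:**
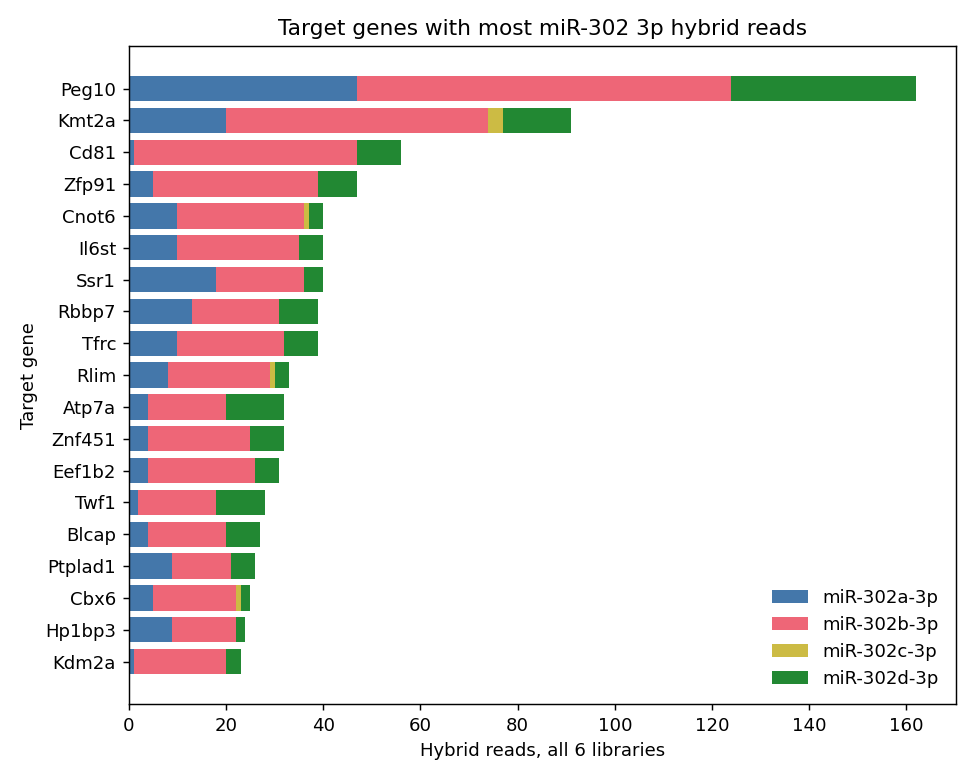
Hybrid reads of the 4 miR-302 3p strands, summed over the 6 libraries (x axis), at 19 of the 20 target genes with most reads (y axis), with a colour for each strand. Peg10 leads with 162 reads and Kmt2a follows with 91, and miR-302b-3p gives 46 of the 56 reads at Cd81.

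Peg10, an imprinted gene derived from a retrotransposon and needed for the placenta, had the most reads, 4, 10 and 13 from WT cells and 19, 76 and 40 from HM cells. Per 1000 miR-302 3p reads this was 26.5 ± 16.2 in WT and 37.9 ± 5.50 in HM (SD, n = 3), and the groups overlapped. The hybrids of Peg10 with the miR-17 family, whose 5p strands carry a similar seed, went from 31 reads in WT to 1 in HM. The miR-302 3p strands held 39.7% of all Peg10 hybrids in WT and 84.4% in HM. Kmt2a, a histone H3 lysine 4 methyltransferase, was hit 6, 6 and 7 times in WT cells and 9, 37 and 26 times in HM cells, or 18.5 ± 4.65 and 20.5 ± 5.72 per 1000 family reads.

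Cd81, a tetraspanin of the cell surface, was hit 5, 11 and 4 times in WT cells and 7, 13 and 16 times in HM cells. miR-302b-3p gave 46 of its 56 reads, 82.1% (95% Clopper-Pearson interval 69.6% to 91.1%), whereas it gave 55.2% of the family's reads overall. Only 1 Cd81 read was from miR-302a-3p. Over the 28 genes with 20 or more reads the share of miR-302b-3p ran from 45.0% at Ssr1, a subunit of the translocon-associated complex, to 85.0% at Top2a, a DNA topoisomerase, with a median of 59.2%. These genes were picked out after their values were seen, and no test was made of them.

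Other genes among the top 20 work in RNA decay, signalling, chromatin and transport. Cnot6, a deadenylase subunit of the CCR4-NOT complex, Il6st, the gp130 receptor subunit of LIF and IL-6 signalling, and Ssr1 had 40 each. Zfp91, a zinc finger ubiquitin ligase, had 47, Tfrc, the transferrin receptor, had 39 and Rlim, a ubiquitin ligase known from X inactivation, had 33. Rbbp7, a histone-binding protein, had 39 reads, Kdm2a, a histone H3 lysine 36 demethylase, had 23, and Cbx6, a Polycomb protein, had 25.

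miR-302a-3p had 487 target genes, of which 342 (70.2%) were also targets of miR-302b-3p, and these made up 42.1% of the 813 genes of miR-302b-3p. Of the 494 genes of miR-302d-3p, 351 (71.1%) were shared with miR-302b-3p and 250 (50.6%) with miR-302a-3p. miR-302c-3p had 76 genes, of which 31 (40.8%) were shared with miR-302b-3p and 21 (27.6%) with miR-302a-3p. All 4 strands were found at 18 genes, 3 strands at 208, 2 at 287 and 1 at 600. Among the 99 genes with 10 or more reads none had a single strand, and 79 had 3. The TargetScan filter gives strands of 1 seed the same list of allowed genes, and what part of the sharing this filter sets was not tested.

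The leading genes of miR-302a-3p were Peg10 (47 reads), Kmt2a (20) and Ssr1 (18), those of miR-302b-3p were Peg10 (77), Kmt2a (54) and Cd81 (46), and those of miR-302d-3p were Peg10 (38), Kmt2a (14) and Atp7a (12). miR-302c-3p stood apart. Its leading gene was Celf1, an RNA-binding regulator of splicing and decay, with 13 of its 110 reads, where miR-302b-3p and miR-302d-3p had 2 reads each and miR-302a-3p had 0. Hus1, of the checkpoint clamp for DNA damage, and Kpnb1, importin beta, had 4 reads each from miR-302c-3p and 0 from the other 3 strands. The TargetScan filter may allow other genes for miR-302c-3p, which has a seed of its own. What part of this difference the filter sets was not tested.

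Of the 218 target genes of the miR-290 cluster strands with the same seed, 178 (81.7%) were also miR-302 3p targets, and they were 15.99% of the 1113 genes of the family. For the miR-17 family 5p strands 267 of 710 genes (37.6%) were shared, and for miR-367-3p, with its unrelated seed, 168 of 563 (29.8%). The family's 1113 genes were 34.8% of all 3200 target genes. The share of the miR-17 family lay near this value and that of miR-367-3p below it. The TargetScan filter gives strands of the same seed the same list of allowed genes. What part of the 81.7% this filter sets was not tested.

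WT libraries held 511 target genes of the family and HM libraries 983, with 381 in both, which is 74.6% of the WT list and 38.8% of the HM list. These numbers rise with depth. At an equal depth of 297 miR-302 3p reads per library, the expected number of distinct genes was 207, 210 and 200.0 for WT and 220.1, 219 and 212 for HM. HM was higher in every library, at 217 ± 4.63 against 206 ± 5.01 (SD, n = 3; difference 11.6 genes, exact permutation p = 0.1).

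Sites for the seed AAGUGCU were then searched in the target fragments, on the strand as read. An 8-mer was AGCACTTA, a 7-mer-m8 AGCACTT, a 7-mer-A1 GCACTTA and a 6-mer GCACTT, and each fragment was counted once under its longest site. A site of at least 7 bases stood in 37.2%, 34.5% and 29.3% of the family's WT reads and in 34.6%, 33.8% and 32.2% of its HM reads. In fragments ligated to 241 miRNAs of other seeds the same sites stood in 0.806% to 3.14% of reads. The family was higher in 6 of 6 libraries, by 31.6 percentage points on average (range 28.2 to 36.4). The filter on TargetScan kept genes predicted from a seed site of the miRNA in the hybrid, so it favours the sign of this and the later differences from other seeds, and no p is given for them. WT and HM overlapped, at 33.7% ± 4.01 and 33.5% ± 1.24 (SD, n = 3; exact permutation p = 1).

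By type, 7.96% of the family's reads had an 8-mer, 15.8% a 7-mer-m8, 9.84% a 7-mer-A1 and 10.1% a 6-mer alone, and 56.3% had none of them. miR-302a-3p (32.2%), miR-302b-3p (35.8%) and miR-302d-3p (32.4%) had like shares with at least a 7-mer. The miR-290 cluster strands had 45.1% of 317 reads (95% Clopper-Pearson interval 39.5% to 50.8%), and 18.9% of their reads had an 8-mer. The first 6-mer had a median of 11 bases before it (middle 50% from 9 to 12) and 6 after it, in fragments with a median length of 23 nt.

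**Figure D3:**
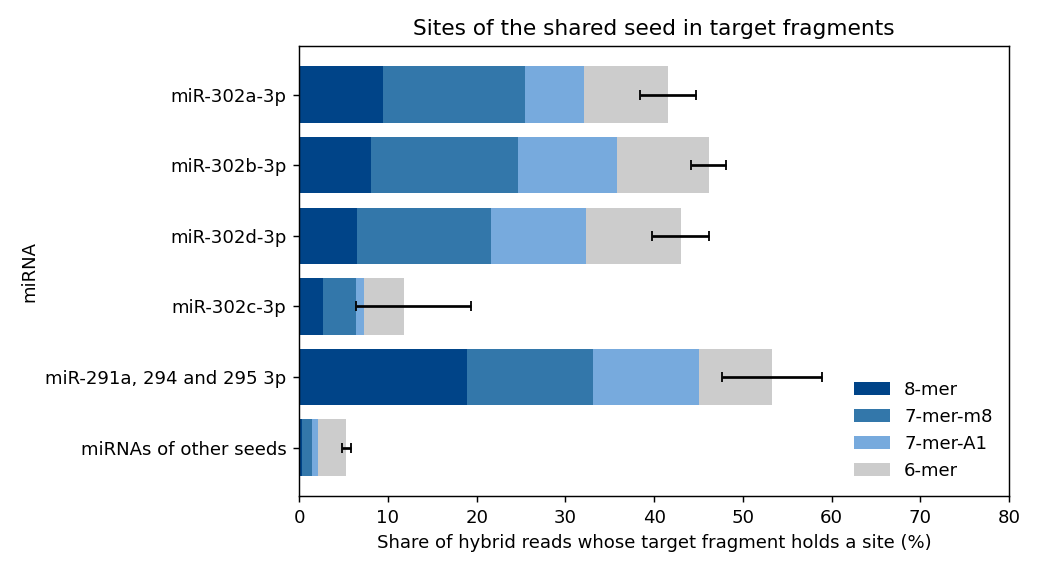
Share of hybrid reads (x axis, percent) whose target fragment holds a site of the seed AAGUGCU, by longest site, for each miR-302 3p strand, the miR-290 cluster strands with the same seed and 241 miRNAs of other seeds, pooled over 6 libraries. Black bars are 95% Clopper-Pearson intervals of the sum. miR-302a-3p, b and d reach 41.5% to 46.2%, miR-302c-3p 11.8% and other seeds 5.28%.

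**Figure D4:**
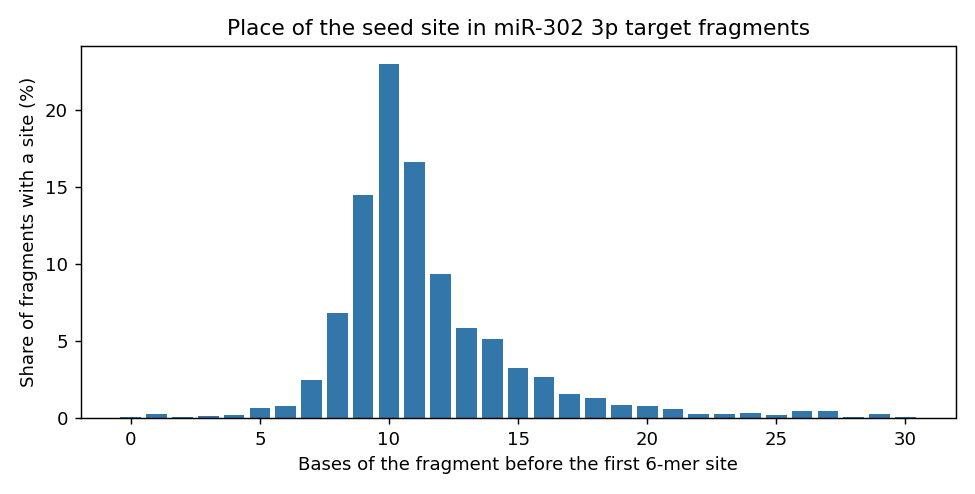
Number of bases of the fragment that precede its first 6-mer site (x axis, shown up to 30) against the share of the 1952 fragment reads with a site (y axis, percent). The most frequent place is 10 bases in, with 23.0% of the reads.

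miR-302c-3p again stood apart. Only 7.27% of its 110 reads had a 7-mer or longer for the shared seed (95% Clopper-Pearson interval 3.19% to 13.8%). The match to its own seed, AAGCACT, which overlaps the 7-mer-m8 in 6 bases, stood in 41.8% of its reads (interval 32.5% to 51.6%). The same letters stood in 6.43% to 8.74% of the reads of the other 3 strands and in 0.509% of the reads of other seeds. The filter on TargetScan may favour the difference from the other 3 strands too, and its part was not tested.

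Examples of canonical matches are given from the deposited sequences in the sense of the mRNA, with the site in capitals, for leading target genes:

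Cd81, 7-mer-A1: tgccttcaatGCACTTAttc

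Ssr1, 8-mer: aattcccaaacttcaAGCACTTAagat

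Cnot6, 8-mer: agaggggaggAGCACTTActca

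Il6st, 7-mer-A1: aggagttgatatGCACTTAgttg

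Kmt2a, 7-mer-m8: ctatttgaAGCACTTcatagggag

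The Cd81 sequence was read 23 times in all 6 libraries, with miR-302b-3p and miR-302d-3p. Those of Ssr1 and Il6st were read 3 times each and those of Cnot6 and Kmt2a once each. A 7-mer stood in 98.2% of the Cd81 reads, 81.3% at Kmt2a and 67.5% at Ssr1, but only in 20% at Il6st and 10% at Cnot6. It stood in 97.4% of reads at Rbbp7, 96.2% at Ptplad1, 95.8% at Hp1bp3, a heterochromatin-binding protein, and 93.5% at Eef1b2, a translation elongation factor. At Rbbp7 all 39 reads overlapped in 1 place.

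The leading target had almost no canonical site. At Peg10, 2.47% of the 162 reads held a 7-mer, yet 112 reads (69.1%) overlapped at a single place that was seen in all 6 libraries. Its most frequent fragment, and that of Zfp91, are shown with the 7 bases nearest to a site in capitals:

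Peg10: agtggacgagtGTACTTAttg

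Zfp91: acctccataatGCTCTTAatg

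With positions counted from 1 at the 5′ end of the 6-mer GCACTT, the Peg10 fragment differs from the site by C2T, which puts a U opposite G at base 6 of the miRNA (a G·U wobble), and the Zfp91 fragment by A3T, a mismatch opposite base 5. After these were seen, every single substitution of the 6-mer followed by an A was counted in the 2519 reads without a 6-mer. Some 1-substitution site stood in 26.4% of them (23.6% to 30.2% by library), against 5.14% of the reads of other seeds (4.30% to 6.35%). Without Peg10 the share was 23.3%.

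The substitutions were unequal. A3T was the most frequent, in 183 reads (7.26%) at 56 genes, against 0.157% for other seeds, and its leading gene was Atp7a with 26 reads. C2T followed with 177 reads (7.03%) at 35 genes, against 0.223%, and 113 of its reads were at Peg10, without which its share was 2.71%. A3G, a wobble opposite base 5, had 29 reads, of which 26 were at Rlim. No read had T5G, in the family or with other seeds. T5A had 4 reads (0.159%, against 0.511% for other seeds) and T5C had 3 (0.119%, against 0.0917%). T6A was rarer in the family (1.43%) than with other seeds (2.18%). By genotype, A3T stood in 10.0% ± 0.690 of such reads in WT and 6.58% ± 1.47 in HM, and C2T in 5.62% ± 0.708 and 7.23% ± 0.847 (SD, n = 3), neither with overlap. T6A, C4T and G1C, on 36, 21 and 6 reads, did not overlap either, while all other substitutions did. The genotype values were not taken without Peg10 or Atp7a, so what part these genes have in them was not tested. Since the substitutions were counted after the leading fragments had been seen, these values are a description and no test was made.

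The last comparison asked which targets of the family differed between genotypes relative to 3p hybrids. Reads were summed over the 4 strands per gene and fitted together with the pairs of all other miRNAs. Of the 99 genes with 10 or more reads, 2 passed, both lower in HM, where 10.3% of all 185 pairs tested did. Most of the calls among all pairs were not of 3p-miRNAs, and of the 170 pairs of 3p-miRNAs 4 passed (2.35%). These 170 pairs include the family's 99 and these 4 calls its 2, so the shares are not independent. At an unadjusted p under 0.05, 9 of the 99 genes passed. The median log2 fold change was 0.12 over the 99 genes. It was -0.47 over the 86 pairs of other miRNAs, some of them not of 3p-miRNAs. Over all pairs it was -0.18 and over pairs of 3p-miRNAs -0.07, both with the family included. The median over the 99 genes had no stable sign. It was 0.46 with DESeq2, 0.72 with TMM and 1.15 with all hybrids as the total. It lay between -0.37 and -0.03 when any 1 library was left out, where fewer genes were tested. The family's median also moved with the read minimum, to 1.44 with no minimum (1113 genes) and -0.74 at 30 or more reads (14 genes). For 11 of the 99 genes every HM library lay on 1 side of every WT library (4 higher and 7 lower). Over all 185 pairs this held for 33 (17.8%). That set includes the 99 genes and pairs that are not of 3p-miRNAs, and no share over 3p-miRNAs alone was taken.

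Ptplad1 (Hacd3 in the current annotation), an enzyme of very long chain fatty acid synthesis, was hit 7, 8 and 2 times in WT cells and 2, 3 and 4 times in HM cells, although HM libraries held more 3p reads. That was 15.4 ± 7.53 per 1000 family reads in WT and 3.01 ± 1.24 in HM (SD, n = 3), and it fell by 2.61 on the log2 scale relative to 3p hybrids (SE 0.62, edgeR adjusted p = 0.000373). Of its reads 25 of 26 fell in 1 place. The call was lost with DESeq2 (-2.16) and with all hybrids as the total (-1.58).

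Atp7a, a copper transporter, was hit 6, 4 and 6 times in WT cells and 4, 8 and 4 times in HM cells, or 15.7 ± 5.44 and 5.03 ± 1.42 per 1000 family reads (log2 fold change -1.75, SE 0.55, edgeR adjusted p = 0.0163). It was lost in 8 of 15 alternatives, where the adjusted p reached 0.387. miR-302 3p strands held 16.9% of the Atp7a hybrids, the smallest share among the top 20 genes. With the strands kept apart, 2 of the 54 strand and gene pairs tested passed, where 15.7% of all 140 did. They were miR-302a-3p with Ssr1 (4, 5 and 2 WT reads against 0, 3 and 4, log2 fold change -2.34, SE 0.76, edgeR adjusted p = 0.0188) and miR-302d-3p with Atp7a (5, 0 and 3 against 0, 4 and 0, -2.70, SE 0.98, edgeR adjusted p = 0.0447). Their calls were lost in 8 of 14 and 9 of 11 alternatives. The 140 pairs include the family's 54 and also pairs that are not of 3p-miRNAs. The share over 3p-miRNAs alone was not taken for this fit.

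**Figure D5:**
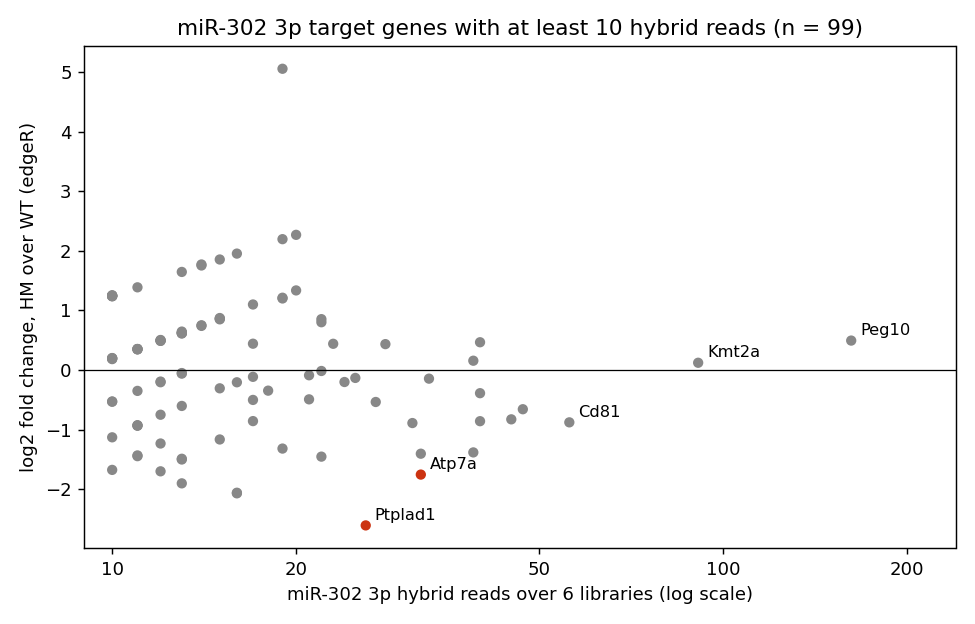
log2 fold change of HM over WT (y axis, edgeR, relative to 3p hybrids) against hybrid reads over 6 libraries (x axis, log scale) for the 99 miR-302 3p target genes with 10 or more reads. Red points passed at an adjusted p under 0.05. Ptplad1 (-2.61) and Atp7a (-1.75) passed, and the most read genes Peg10 and Kmt2a lie at 0.49 and 0.12.

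Genes near the threshold went both ways. Tfrc was hit 3, 5 and 9 times in WT cells and 4, 8 and 10 times in HM cells (log2 fold change -1.38, SE 0.51, edgeR adjusted p = 0.0539). It ran from -0.75 without WT library 3 (edgeR adjusted p = 0.665) to -1.77 without HM library 3, where it passed (edgeR adjusted p = 0.0231), as it did without WT library 1 (-1.70, edgeR adjusted p = 0.0393). Plekhm1, an adaptor of lysosome fusion, had 0 reads in all WT libraries and 2, 12 and 5 in HM, which is at least 1.83-fold higher against a floor of 3 reads over the WT group (edgeR adjusted p = 0.06). Peg10 was at 0.49 on the log2 scale (SE 0.41, edgeR adjusted p = 0.614) and Kmt2a 0.12 (SE 0.43, edgeR adjusted p = 0.909), and neither passed.

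In gene groups of the family's known roles few members had enough reads to be tested, and none of those tested passed in either direction. For scale, 1113 of all 3200 target genes had a family hybrid. Of 27 reported miR-302 targets, 18 had any hybrid, 13 had a family hybrid and 3 were tested. Among the 13 were Ccnd1, the D-type cyclin of G1, with 2, 0 and 1 WT reads and 5, 9 and 5 HM reads, Tgfbr2, a TGF-beta receptor, with 1, 1 and 0 and 2, 4 and 2, and Lefty1, a Nodal antagonist, with 0 reads in WT and 1, 5 and 0 in HM. Btg1, an antiproliferative gene, had 3 reads in WT and 5 in HM. The median log2 fold change of the 3 tested was 0.20.

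Of 30 genes of TGF-beta, Nodal and BMP signalling, 24 had any hybrid, 7 had one with the family and 2 were tested (median log2 fold change -0.28), with Acvr2b, an activin receptor, at 4 reads in WT and 8 in HM. Of 30 genes of G1/S and Hippo control, 20 had any hybrid, 10 had one with the family and only Ccnd1 was tested (0.85). Chromatin genes carried the most reads of these lists, with a family hybrid at 11 of 30 genes (19 with any hybrid), 176 reads and 5 tested (median 0.44). Of the 176 reads 91 were at Kmt2a alone, without which this list would not lead. Its lead is thus that of 1 gene. Besides Kmt2a and Kdm2a they were led by Setd5 (2 reads in WT, 17 in HM), Arid4b (2 and 15), Ash1l, a histone methyltransferase (6 and 7), and Kdm5a, a histone demethylase (0 and 5). Of 16 genes of the silencing machinery 10 had any hybrid, 8 had one with the family and 3 were tested (median -0.31), among them Tnrc6b (4 and 11 reads), Tnrc6c (2 and 8) and Ago1 (4 and 6), with Cnot6l at 0 and 5.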

How the data were processed

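AGO2 CLASH hybrids of 3 WT and 3 HM libraries of P19 cells were analysed, grouped by the titles and genotypes in the labels. Per the study's methods, QuagmiR named the miRNA part, Bowtie2 mapped the target part to 3′ UTRs of mouse coding genes, and interactions not predicted by TargetScan 8.0 were removed. This leaves sites outside 3′ UTRs and unpredicted genes out of every count. The versions of both tools, the build and the treatment of duplicates are not given in the sources used here. The values are raw read counts per hybrid sequence as deposited by the authors.

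Counts were summed per library, miRNA and gene. The members, lists and tests were chosen with earlier results of these data known. Features with at least 10 reads entered edgeR 4.0.16 (glmQLFTest, R 4.3.3), with the 3p total as library size and Benjamini-Hochberg adjustment at 0.05 over all features. On simulated counts, 18 of 23 miRNAs among 92 and 25 of 46 pairs among 157 changed 4-fold were recovered, with 1 false call in each. Shares were compared by two-sided exact permutation over libraries. Target genes are named as deposited (1069 of 1113 matched in RefSeq GRCm38.p6, 57 of them as a synonym), and mature sequences and hairpins are from RefSeq. Genes named are the 20 with most family reads, the 3 leading genes of each strand, those called, and list genes with at least 5 reads; 1 of the 20 is not reported here. Top2a, Plekhm1, Entpd7, Trib1 and Myrf were named after their values were seen. Alternatives were DESeq2 1.42.0, other library sizes and minimums, sequences counted once, the replicate block and leaving out each library.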

Additional observations from a re-analysis of the deposited data

How the results depend on the processing

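Relative to all hybrids the log2 fold changes turned positive for miR-302a-3p (0.47), miR-302c-3p (0.20), miR-302d-3p (0.57) and the 4 strands summed (0.96), as they did for miR-291a-3p (0.40), miR-294-3p (0.41), miR-295-3p (0.41) and miR-367-3p (0.86), and the family's share was 17.2 points higher in HM. miR-367-3p was also positive with TMM (0.22) and DESeq2 (0.18). DESeq2 gave 0.25 for the sum, and -0.19, -0.47 and -0.12 for miR-302a-3p, c and d, none of them called; TMM factors gave -0.16, -0.44 and -0.076, also not called. The split of called miRNAs, 15 higher and 41 lower in HM, became 32 and 31 with all hybrids as the total, 19 and 33 with TMM and 13 and 31 with DESeq2, and the median over all miRNAs moved from -0.72 to 0.33, -0.31 and -0.35. At 30 or more reads 35 of 51 miRNAs were called. Leaving out 1 library gave 40 to 61 called miRNAs and log2 fold changes of -0.65 to -0.52 for miR-302a-3p, 0.22 to 0.43 for miR-302b-3p, -1.02 to -0.71 for miR-302c-3p and -0.57 to -0.43 for miR-302d-3p. The call of miR-302b-3p was lost without WT library 1 (0.22), and that of miR-302c-3p without WT library 1 (-0.89) or 2 (-0.81) or HM library 1 (-0.80) or 2 (-0.71), and with HM libraries 1 and 2 summed as 1, a setting chosen after seeing the data (-0.81).

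The 2 called target genes became 6 with all hybrids as the total (Il6st, Kmt2a, Peg10, Plekhm1, Top2a and Trib1, all higher), 0 with DESeq2 (3 at an unadjusted p under 0.05), and 1 with no minimum, with 30 reads or with sequences counted once. They were 1 to 4 without 1 library. Without WT library 3 or HM library 2 only Ptplad1 remained, without HM library 1 Entpd7 and Plekhm1 joined, without HM library 3 Tfrc joined, and without WT library 1 Tfrc and Myrf joined while Atp7a was lost. With TMM they were Ptplad1 and, higher, Plekhm1. Atp7a was not called without WT library 1 (-1.68) or 3 (-1.51) or HM library 2 (-1.61). Kmt2a, not called, ran from -0.073 to 0.36 without 1 library. The equal-depth difference in distinct genes was 4.73 at 0.5 of the depth. The HM minus WT differences in within-family, seed-site and start shares moved by less than the spread between libraries under the alternatives run. These include the settings without Peg10 and with the own seed of miR-302c-3p, chosen after seeing the data. The seed-site share itself depended on the site type, with WT means of 33.7% for 7-mer or longer, 42.8% for 6-mer or longer and 8.87% for 8-mers.

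No pairing by replicate number was seen. Same-numbered WT and HM libraries deviated from their group means with correlations of 0.02, -0.09 and -0.11 over 40 miRNAs. No difference beyond sampling noise was detected between the HM libraries, so this check could miss a pairing. With the replicate block 49 miRNAs and 2 target genes were called, and miR-302c-3p was not (-0.86). Of the 1113 target genes 99 had 10 or more reads, and the others were not tested in the fit.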
